A study of Danio rerio with 6 samples.

Results

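The annexins and the S100 calcium-binding proteins, together with the ictacalcins, were examined in regenerating tail fins of zebrafish larvae. The members are the genes of the count table whose zebrafish symbol begins with anxa and a digit, with s100 or with icn, in any case. This gave 31 of 32057 gene IDs, 17 of them annexins and 14 S100 or ictacalcin genes. Tail fins of wild-type larvae were amputated at 3 dpf (days post fertilization), and the regenerated fins were collected at 24 hpa (hours post amputation). The control larvae received the solvent DMSO, and the larvae of the other group, labelled as mTOR inhibition, received 1 µM rapamycin from 2 dpf, a drug that blocks mTOR complex 1. There were 3 libraries per group, control 1 to 3 and rapamycin 4 to 6, and each was made by SMART-seq from the RNA of 50 pooled fins. All larvae were amputated, so every level below is that of a regenerating fin, and no uncut fin is compared here.

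Annexins are cytosolic proteins that attach to acidic phospholipids of membranes when calcium rises, and they help to reseal torn membranes, to fuse vesicles and to link membranes with actin. S100 proteins are small proteins of the EF-hand type that form dimers, and most of them are calcium sensors that bind target proteins after calcium binding. The families meet in complexes, of which that of annexin A2 with S100A10 in mammals is the best known. Ictacalcin is an S100 protein first described in catfish skin and chemosensory tissue. Calcium rises within the wound margin of a cut fin, and both families are abundant in vertebrate epidermis.

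The total counts lay between 49055607 and 54162044 per library, and 19778 genes had enough counts to be tested. Levels are given as CPM, the read count of a gene scaled to a common library size with the TMM method of edgeR. Log2 fold changes are rapamycin over control, given with their standard error (SE). In a principal component analysis, the rapamycin libraries took first-component scores of 59.1 to 60.02, control 2 and 3 at -77.4 and -92.4 and control 1 between them at -8.84. Short genes were favoured in control 2 and 3, where log2 CPM relative to each gene's mean over the libraries had a Spearman's rho with gene span, across 13557 genes, of -0.34 and -0.28, against 0.16 to 0.30 in the other 4 libraries. Markers of the tissue were present, with a summed level of 12 superficial epidermis genes of 43080 to 54085 CPM in the control and 53812 to 66185 CPM in the rapamycin libraries, while 10 found markers of nerve and glia summed to 6.93 to 19.1 CPM over all libraries.

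Rapamycin fins had lower levels of 4 members, the S100 genes *s100s* and *s100t* and the annexin genes *anxa5a* and *anxa3b*, and each was reduced by more than 1 on the log2 scale. No member rose. Of the 29 members that could be tested, 4 fell at an adjusted p under 0.05 of edgeR's quasi-likelihood test, adjusted over all 19778 genes, and 25 did not pass. Over all tested genes, 3.27% were called lower and 1.97% higher, together 5.24%. The same 4 also exceeded a log2 fold change of 1 in size, a rule met by 2.61% of all tested genes in the lower and 1.49% in the higher direction. At an unadjusted p under 0.05, 9 members were lower and 4 higher, beside 13.3% lower and 10.1% higher of all tested genes. DESeq2 called 9 members lower and 1 higher (*anxa1b*), with 7.78% and 5.06% of all genes, and limma-voom called 6 lower and 0 higher, with 3.43% and 2.87% of all genes. The median log2 fold change was -0.23 over 16 tested annexins and -0.50 over 13 tested S100 and ictacalcin genes, beside 0.0014 over all tested genes. The fold change was below 0 in 22 of the 29 members and in 49.9% of all tested genes.

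In 9 members every rapamycin library lay below every control library, and in 3 members above, while the groups overlapped in 17. Over all tested genes these shares were 15.9% below and 14.8% above. With control 1 left out, edgeR called 13 of the 29 members lower and 2 higher, in a setting where 15.6% of all genes were called lower and 15.5% higher. Without any other single library 1 to 4 members were called lower and none higher. In those settings 65 to 474 of the 20276 to 20455 tested genes were called lower and 47 to 332 higher. The fit with all libraries called 647 lower and 390 higher. In 22 of the 29 members control 1 was the lowest of the controls, which was so in 38.1% of all tested genes.

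**Figure D1:**
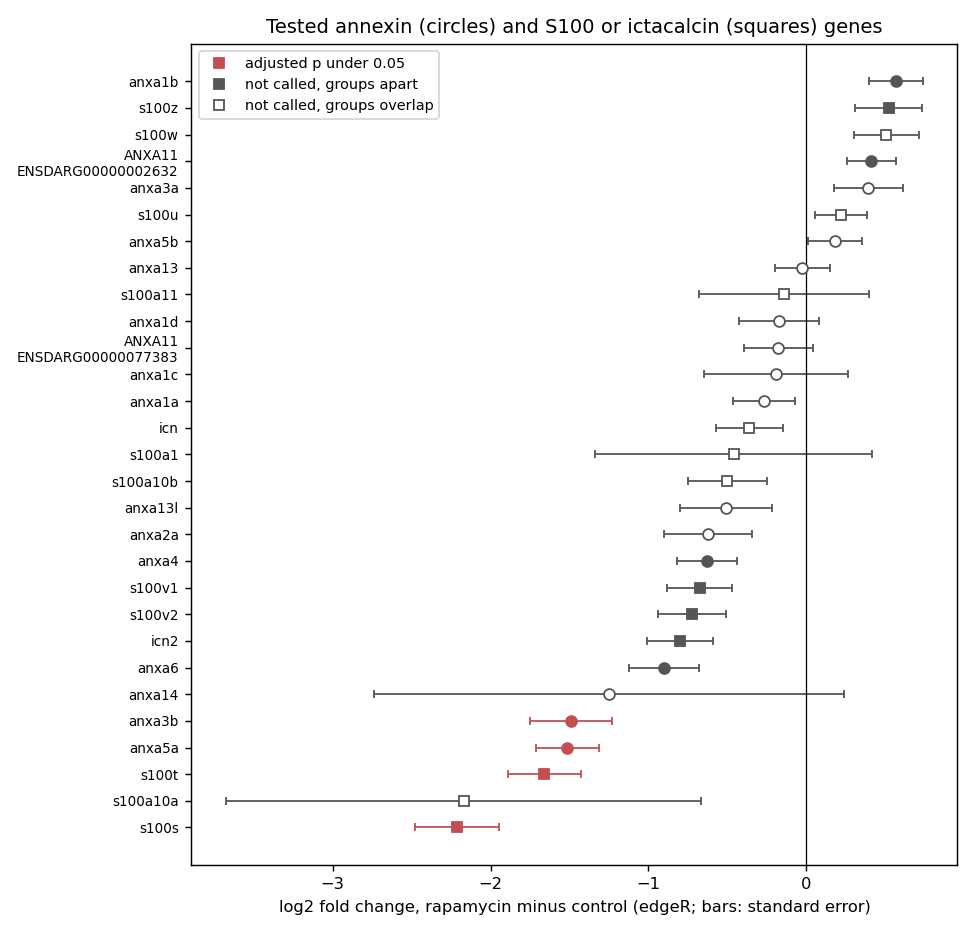
The log2 fold change of the 29 tested members, rapamycin minus control, with its standard error from edgeR, is plotted for annexins (circles) and for S100 and ictacalcin genes (squares). The 4 called genes (red) lie between -2.21 and -1.49, filled grey symbols are uncalled members whose groups do not overlap, and the widest bars belong to the sparsely counted *s100a10a* and *anxa14*.

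The largest reduction among called members was that of *s100s* (ENSDARG00000036773), which in zebrafish is known from the mechanosensory hair cells of the ear and the lateral line. Its levels were 20.1, 18.2 and 15.8 CPM in control 1 to 3 and 4.88, 4.05 and 2.77 CPM in rapamycin 4 to 6. The groups were well apart, and control 1 lay with the other controls. The means were 18.1 ± 2.13 CPM in controls and 3.90 ± 1.06 CPM after rapamycin (SD, n = 3 each, log2 fold change -2.21 ± 0.27 SE, adjusted p = 0.00512, edgeR). It kept its call in all 14 alternative settings, with an adjusted p of at most 0.0401 over the edgeR, DESeq2 and limma-voom fits.

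*s100t* (ENSDARG00000055589), an S100 gene also expressed in zebrafish hair cells, was at 544, 544 and 335 CPM in the control and at 161, 166 and 125 CPM in the rapamycin libraries. The lowest control was again control 3 and the lowest treated library rapamycin 6, as for *s100s*. The means were 474 ± 121 CPM in controls and 150.3 ± 22.4 CPM after rapamycin (SD, n = 3 each, log2 fold change -1.66 ± 0.23 SE, adjusted p = 0.00774, edgeR). The call was lost by a small margin without control 2 (adjusted p = 0.0592) and without rapamycin 4, 5 or 6 (adjusted p = 0.0586, 0.0516 and 0.0621, all from edgeR). In those fits only 65 to 79 of all tested genes were called lower, beside 647 with all libraries.

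Markers of hair cells and neuromasts, the sense organs of the lateral line, were lower in the same libraries. Of 12 symbols on the marker list 7 were found and tested. In edgeR *pvalb8*, *cabp2b*, *pou4f3* and *tekt3* fell, and the median log2 fold change of all 7 was -1.86. The remaining 3, *atoh1a*, *prox1a* and *pcsk5a*, were not called, with log2 fold changes of -0.66, -0.071 and -1.23. The summed level of the 7 was 538 to 789.5 CPM in the control and 122 to 183 CPM in the rapamycin libraries. Most of it came from the calcium-binding protein gene *pvalb8*, at 619 ± 109 CPM (SD, n = 3) and 139 ± 27.9 CPM (SD, n = 3). No found marker of this list was at 0. *pvalb8* kept its call without any single library, while the count of fallen markers was 1 without control 2, rapamycin 5 or rapamycin 6 and 2 without rapamycin 4.

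Relative to that sum, *s100s* stood at a log2 ratio of -5.30, -5.26 and -5.09 in the control and -5.23, -5.42 and -5.46 in the rapamycin libraries. The groups overlapped on this scale, and the means differed by -0.16. The log2 ratio of *s100t* to the sum was -0.54, -0.36 and -0.68 in the control and -0.19, -0.067 and 0.029 in the rapamycin libraries, so it was higher in every treated library, by 0.45 on average. The part of hair cell number in these values was not tested, and in bulk libraries fewer cells of a type and less RNA per cell cannot be told apart. The choice of this ratio was made after the values were seen.

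**Figure D2:**
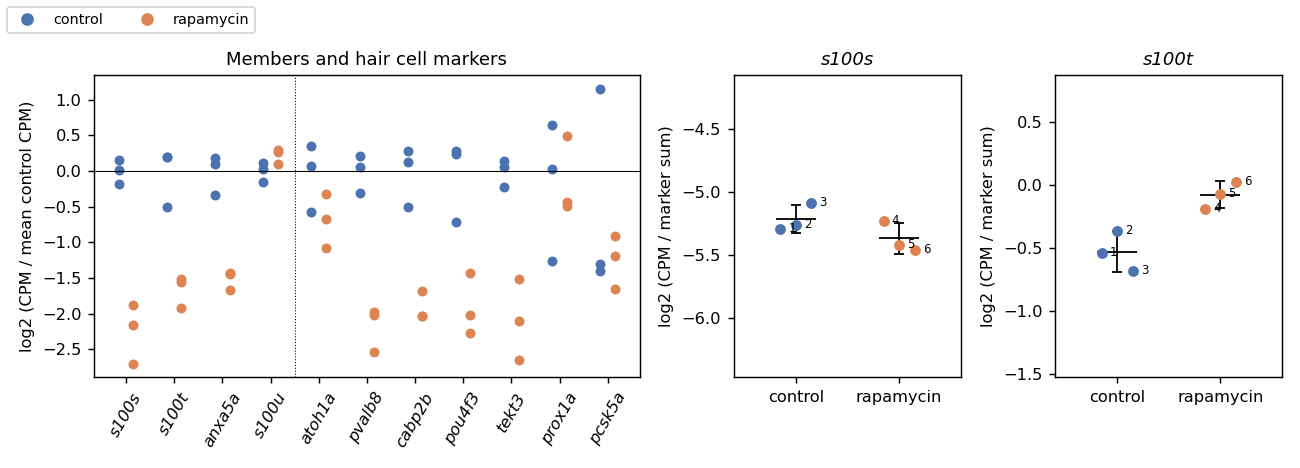
On the left, log2 of the CPM over the mean control CPM is shown for 4 members and 7 hair cell and neuromast markers in each control (blue) and rapamycin (orange) library. The other panels show log2 of the CPM of *s100s* and *s100t* over the summed marker CPM, with numbered libraries and mean ± SD (n = 3). *s100s* overlaps between the groups on that scale, while *s100t* is 0.45 higher with rapamycin and *s100u*, on the left, lies near 0 in both groups.

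*anxa5a* (ENSDARG00000026406) encodes a zebrafish annexin A5, the annexin whose mammalian form binds phosphatidylserine and is used as a probe of dying cells. It was at 60.3, 63.7 and 44.3 CPM in the control and at 20.6, 17.6 and 20.9 CPM in the rapamycin libraries. The treated libraries were close together and lay under the lowest control by a wide gap. The means were 56.1 ± 10.4 CPM in controls and 19.7 ± 1.83 CPM after rapamycin (SD, n = 3 each, log2 fold change -1.51 ± 0.20 SE, adjusted p = 0.00651, edgeR), and the call was kept in 13 of 14 alternative settings. The exception was the fit without rapamycin 5 (adjusted p = 0.0521 from edgeR).

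Its paralog *anxa5b* was not lower in the treated libraries. *anxa5b* was at 113, 143 and 137 CPM in the control and at 133, 149.7 and 163 CPM in the rapamycin libraries, with overlapping groups (log2 fold change 0.18 ± 0.17 SE, adjusted p = 0.558, edgeR). Within each library, the log2 ratio of *anxa5a* to *anxa5b* counts, which needs no scaling between libraries, was -0.91, -1.16 and -1.63 in the control and -2.69, -3.09 and -2.97 in the rapamycin libraries. The ratio was thus lower in all 3 treated libraries than in any control. For a ratio in 3 against 3 libraries an exact permutation test cannot go below p = 0.1, so the ratios here are given as a description.

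*anxa3b* (ENSDARG00000044254) and *anxa3a* are the zebrafish copies of annexin A3. *anxa3b* was at 81.3, 148 and 152 CPM in the control and at 36.4, 49.4 and 49.7 CPM in the rapamycin libraries. Control 1 was nearest to the treated libraries but still above all of them. The means were 127 ± 39.5 CPM in controls and 45.2 ± 7.58 CPM after rapamycin (SD, n = 3 each, log2 fold change -1.49 ± 0.26 SE, adjusted p = 0.0158, edgeR). The call was lost without control 2 (adjusted p = 0.0948) and without rapamycin 4, 5 or 6 (adjusted p = 0.0970, 0.0801 and 0.0826, from edgeR). As given for *s100t*, those fits called only 65 to 79 of all tested genes lower.

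*anxa3a* was at 65.5, 95.7 and 117 CPM in the control and at 114, 122 and 129.7 CPM in the rapamycin libraries (log2 fold change 0.39 ± 0.22 SE, adjusted p = 0.312, edgeR). Control 1 was the lowest library and control 3 lay among the treated ones. The log2 ratio of *anxa3b* to *anxa3a* counts was 0.31, 0.63 and 0.38 in the control and -1.64, -1.31 and -1.38 in the rapamycin libraries. *anxa3b* thus had more reads than *anxa3a* in every control and fewer in every treated library, with no correction for transcript length. Of the ratios plotted, that of *s100s* to *s100u* differed more between the groups, and that of *anxa3b* to *anxa3a* had the next largest difference, with means of 0.44 ± 0.17 (SD, n = 3) and -1.44 ± 0.18 (SD, n = 3).

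Markers of other cell types differed between the same groups. Of 15 tested macrophage genes 5 fell and 0 rose in edgeR, with a summed level of 222 to 425 CPM in the control and 156 to 186 CPM in the rapamycin libraries, and 1 *mfap4* gene was at 0 throughout. Of 7 tested neutrophil genes 2 rose and 0 fell, with sums of 234 to 335 CPM and 420.4 to 606 CPM. Most of that sum came from *mmp9*, at 210 ± 57.5 CPM in controls and 369 ± 61.8 CPM after rapamycin (SD, n = 3 each). The granule genes *lyz* and *npsn* had log2 fold changes of -0.44 and -0.13. Every other tested gene of that list was above 0, and its median was 0.81. Of 10 fin fold mesenchyme genes 2 fell and 0 rose, with sums of 47082 to 108068 CPM and 58373 to 61032 CPM, which overlapped. Their median log2 fold change was -0.46, with *pdgfra* (0.45) and *col5a1* (0.012) above 0. Without 1 library, 0 to 9 macrophage genes and 0 to 5 mesenchyme genes were called lower, and 0 to 4 neutrophil genes higher. The upper end in each list came without control 1, and 0 macrophage genes were called without control 2. In the fit without control 1, the macrophage gene *csf1ra* and the mesenchyme gene *pdgfra* were called higher. The summed levels were also lower in every treated library for muscle (301 to 382 CPM in the control, 215 to 292 CPM with rapamycin). So were those of pigment cells (151 to 219.7 and 94.0 to 139 CPM) and nerve and glia (13.1 to 19.1 and 6.93 to 11.9 CPM). In each of these lists 1 gene was called lower (*tpma*, *gch2* and *isl1a*). Most of the pigment cell sum came from *gch2*, at 144 ± 41.5 CPM in controls and 60.7 ± 20.7 CPM after rapamycin (SD, n = 3 each). The median log2 fold change was 0.24 for pigment cell genes, -0.39 for muscle and -0.12 for nerve and glia. Summed levels were higher in every treated library for mucous cells (252 to 384 and 435 to 460.2 CPM, 0 genes called). The same held for ionocytes (139 to 266 and 338 to 366 CPM, *ca2* called higher). The gene *ca2* made up most of the ionocyte sum, at 164 ± 60.9 CPM in controls and 345 ± 14.2 CPM after rapamycin (SD, n = 3 each). Every other tested ionocyte gene had a log2 fold change below 0, and the list median was -0.76. Most of the mucous cell sum came from *capn9*, at 235 ± 85.9 and 345 ± 18.1 CPM (SD, n = 3 each). The median of that list was 0.60, with *agr2* and *sytl2b* below 0. Without control 2 none of these 5 lists had a call in edgeR, and the same held without rapamycin 4, 5 or 6. Relative to the hair cell and neuromast marker sum, the log2 ratio of *anxa5a* was higher in every treated library, by 0.59 on average. That of *anxa3b* was 0.64 higher on average, with overlapping groups. The part of hair cells and of all these cell types in the lower *anxa5a* and *anxa3b* levels was not tested.

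**Figure D3:**
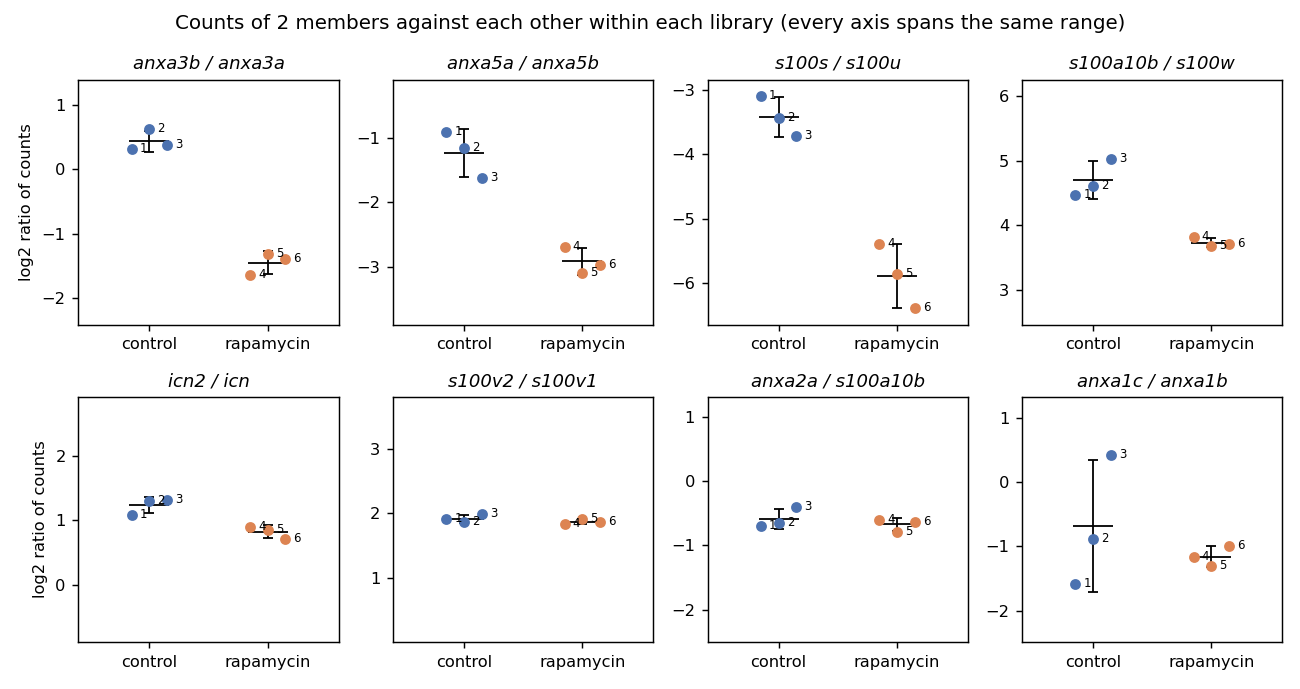
The log2 ratio of the counts of a pair of members within each library is shown for 8 pairs, with numbered libraries and mean ± SD (n = 3), and every axis spans the same range. The upper row holds ratios that separate the groups, such as *anxa3b* to *anxa3a* at 0.31 to 0.63 against -1.64 to -1.31, and in the lower row the *s100v2* to *s100v1*, *anxa2a* to *s100a10b* and *anxa1c* to *anxa1b* ratios overlap.

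A further 5 members did not pass the edgeR test although every treated library lay under every control. *anxa6* codes for an annexin with a duplicated core that takes part in membrane repair of mammalian muscle. It was at 11.2, 13.9 and 15.5 CPM in the control and at 6.65, 7.28 and 7.78 CPM in the rapamycin libraries. Its log2 fold change was -0.90 (standard error 0.22) with an adjusted p of 0.0504 from edgeR, just over the threshold, and 8 of the 14 alternative settings called it lower (adjusted p from 0.00401 to 0.208).

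The ictacalcin gene *icn2* was at 1315, 1808 and 1572 CPM in the control and at 748, 885 and 1065 CPM in the rapamycin libraries. Control 1 was the lowest control and rapamycin 6 the highest treated library. *icn2* missed the threshold (log2 fold change -0.80 ± 0.21 SE, adjusted p = 0.0576, edgeR), and 6 of 14 alternative settings called it (adjusted p from 0.00287 to 0.250). *icn*, its neighbour, was at 619, 734 and 629 CPM in the control and at 399.6, 491 and 652 CPM in the rapamycin libraries, with overlapping groups (log2 fold change -0.36 ± 0.21 SE, adjusted p = 0.340, edgeR). The log2 ratio of *icn2* to *icn* counts was 1.09, 1.30 and 1.32 in the control and 0.91, 0.85 and 0.71 in the rapamycin libraries, so *icn2* had more reads than *icn* in all 6 libraries, by a smaller ratio in every treated library than in any control. Of the 12 superficial epidermis markers, given above, 3 rose and 1 fell in edgeR, with a median log2 fold change of 0.28. Without control 2 none of the 12 was called in edgeR. The part of this cell layer in the *icn2* level was not tested.

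*s100v1* and *s100v2* moved in near lockstep across libraries. *s100v2* was at 386, 582 and 619 CPM in the control and at 275, 337 and 349.8 CPM in the rapamycin libraries (log2 fold change -0.72 ± 0.22 SE, adjusted p = 0.0869, edgeR). *s100v1* was at 103, 161 and 157 CPM in the control and at 77.5, 89.7 and 95.8 CPM in the rapamycin libraries (log2 fold change -0.68 ± 0.21 SE, adjusted p = 0.0926, edgeR). In both genes control 1 was closer to the treated libraries than to the other controls. Their log2 count ratio stayed between 1.83 and 1.98 in all 6 libraries. DESeq2 called both lower (adjusted p = 0.0174 for *s100v2* and 0.0280 for *s100v1*).

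*anxa4*, an annexin of epithelial cells in mammals, was at 104, 159 and 137 CPM in the control and at 88.2, 83.4 and 87.9 CPM in the rapamycin libraries. It did not pass (log2 fold change -0.63 ± 0.19 SE, adjusted p = 0.0857, edgeR). The treated libraries were almost equal, and the spread lay in the control.

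On the other side, 3 members had higher values in every treated library without passing the test. *anxa1b* is a zebrafish copy of annexin A1, which in mammals dampens inflammation through formyl peptide receptors. It was at 345, 414 and 414 CPM in the control and at 536, 612 and 592 CPM in the rapamycin libraries (log2 fold change 0.57 ± 0.17 SE, adjusted p = 0.0850, edgeR). DESeq2 (adjusted p = 0.0219), edgeR with library size only (adjusted p = 0.0420) and edgeR without control 1 (adjusted p = 0.0126) called it higher. *s100z*, known in zebrafish from crypt neurons of the nose, was at 7.57, 9.64 and 9.10 CPM in the control and at 13.3, 11.5 and 13.1 CPM in the rapamycin libraries (log2 fold change 0.52 ± 0.21 SE, adjusted p = 0.178, edgeR).

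The third is an annexin A11 gene, named ANXA11 in the table for more than 1 ID. Annexin A11 tethers RNA granules to lysosomes in mammalian neurons. The gene ENSDARG00000002632 was at 266, 284 and 278 CPM in the control and at 368, 363 and 372 CPM in the rapamycin libraries (log2 fold change 0.41 ± 0.15 SE, adjusted p = 0.148, edgeR). It had the tightest controls of all tested members, the highest being 1.07 times the lowest. The other ANXA11 gene, ENSDARG00000077383, was at 249, 379 and 439 CPM in the control and at 298, 321 and 326 CPM in the rapamycin libraries (log2 fold change -0.17, adjusted p = 0.667 from edgeR). Its control libraries spanned the treated ones, and which ID is *anxa11a* and which *anxa11b* is not told by the names used here.

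**Figure D4:**
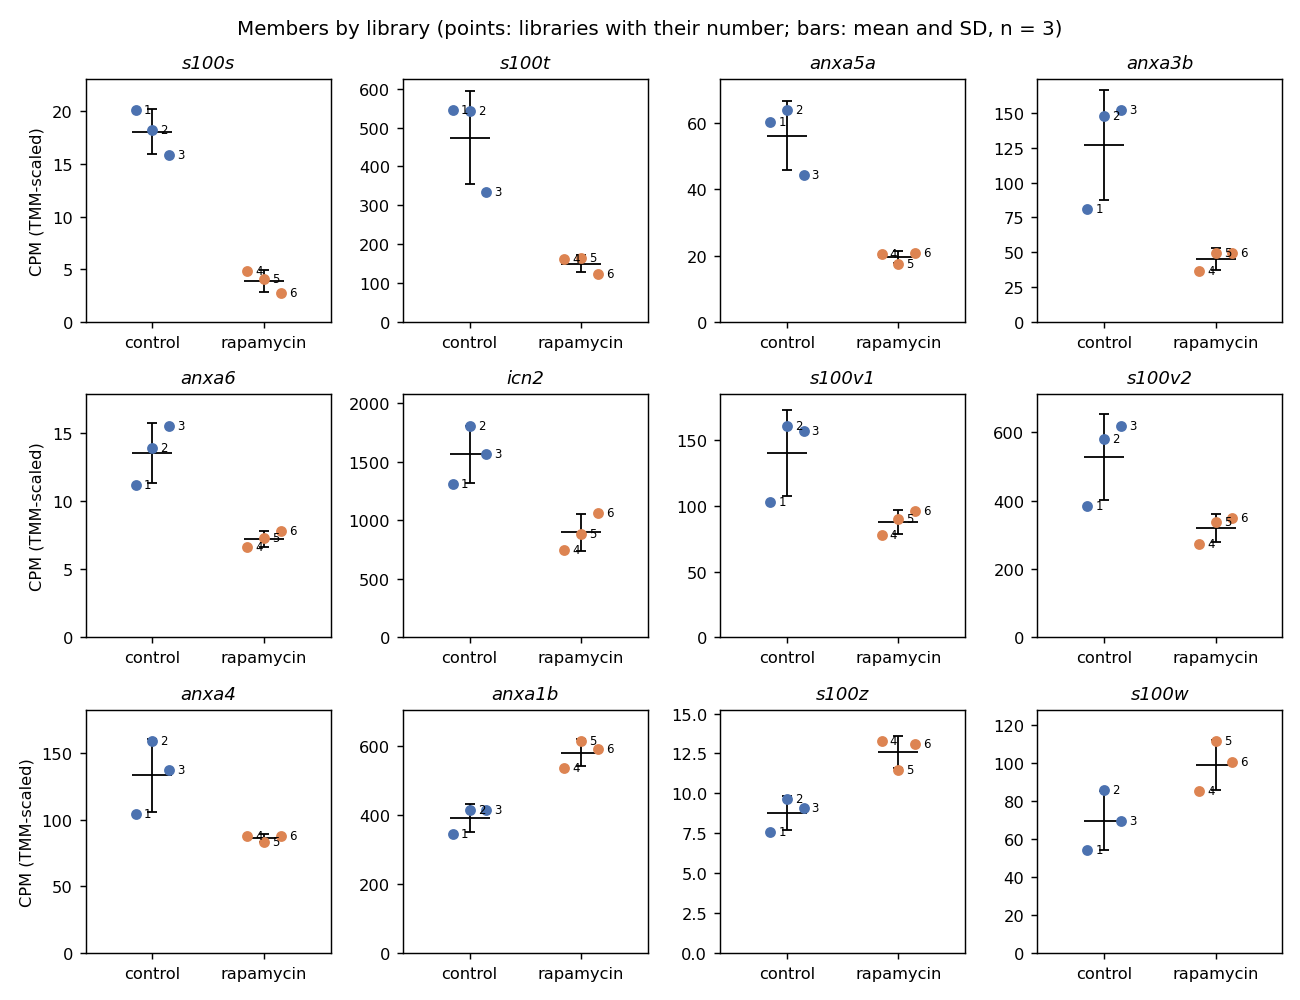
TMM-scaled CPM of 12 members is shown for control 1 to 3 (blue) and rapamycin 4 to 6 (orange), each point a library with its number, with mean ± SD (n = 3) and axes that start at 0. The upper row holds the 4 members that fell, and in *s100v1*, *s100v2*, *anxa4*, *icn2* and *anxa6* control 1 is the control nearest to the treated libraries.

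*anxa2a* and *s100a10b* are the zebrafish genes for the annexin A2 and S100A10 subunits of the complex that in mammals binds plasminogen and its activator at the cell surface. *s100a10b* was at 1207, 2084 and 2284 CPM in the control and at 1200.4, 1431 and 1315 CPM in the rapamycin libraries (log2 fold change -0.50 ± 0.25 SE, adjusted p = 0.262, edgeR). *anxa2a* was at 747, 1325 and 1724 CPM in the control and at 789, 830.0 and 850.4 CPM in the rapamycin libraries (log2 fold change -0.62 ± 0.28 SE, adjusted p = 0.216, edgeR). In both genes control 1 lay at the level of the treated libraries and control 2 and 3 above. Without control 1 edgeR called both lower, with log2 fold changes of -0.74 (adjusted p = 0.00252) and -0.90 (adjusted p = 0.00178).

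The log2 ratio of *anxa2a* to *s100a10b* counts was -0.69, -0.65 and -0.41 in the control and -0.61, -0.79 and -0.63 in the rapamycin libraries. The subunit genes thus kept a similar ratio in all libraries, the means differing by -0.090 with SDs of 0.16 and 0.098 (n = 3 each). Their other copies, *anxa2b* and *s100a10a*, were close to undetected, with 0 to 11 counts and 0 to 21 counts per library.

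The remaining copies of annexin A1 lacked the separation seen in *anxa1b*. *anxa1a* was at 746, 1082 and 992 CPM in the control and at 695, 798 and 851 CPM in the rapamycin libraries (log2 fold change -0.27 ± 0.20 SE, adjusted p = 0.449, edgeR). *anxa1c* was at 115, 223 and 555 CPM in the control and at 238, 247 and 297 CPM in the rapamycin libraries (log2 fold change -0.19 ± 0.46 SE, adjusted p = 0.832, edgeR). The controls of *anxa1c* differed by 4.82 times, the widest of all tested members and beyond the range of the treated libraries on both sides. *anxa1d* was at 53.3, 73.5 and 111 CPM in the control and at 63.7, 75.6 and 71.8 CPM in the rapamycin libraries, likewise with control 1 lowest and control 3 highest (adjusted p = 0.717 from edgeR).

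The groups overlapped in most of the other members. *s100u* was at 172 to 209 CPM in the control and 206 to 236 CPM in the rapamycin libraries, and *anxa13* at 101 to 136 and 107 to 121 CPM (log2 fold changes of 0.22 and -0.023, adjusted p = 0.451 and 0.951 from edgeR). *s100w* was at 54.2, 85.7 and 69.6 CPM in the control and at 85.2, 112 and 101 CPM in the rapamycin libraries (log2 fold change 0.51 ± 0.21 SE, adjusted p = 0.178, edgeR), with control 2 just over rapamycin 4. *anxa13l* was at 6.75 to 9.54 CPM and 4.18 to 7.10 CPM (log2 fold change -0.51, adjusted p = 0.326 from edgeR).

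Few reads were counted for 6 members. *s100a11*, a partner of annexin A1 in mammals, had 38 to 161 counts per library and *s100a1*, an S100 gene of mammalian heart muscle, 6 to 27. *anxa14* had 40, 34 and 103 counts in the control and 0, 0 and 80 in the rapamycin libraries. *s100a10a* had 21, 9 and 19 counts in the control and 0, 11 and 0 in the rapamycin libraries, and its fitted log2 fold change of -2.17 had a standard error of 1.504 (adjusted p = 0.420 from edgeR). *s100b*, a marker gene of glia, had 8 counts in control 2, 12 in rapamycin 5 and 0 elsewhere, and with *anxa2b* it was left out of the test by the low-count filter. A count of 0 in a library allows a level of up to 0.0489 to 0.0679 CPM (3 counts). These limits cover counting error only.

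Some members that lie next to each other on the chromosome had unlike fold changes and others similar ones. In the RefSeq annotation of GRCz12tu, *s100a10b*, *s100w*, *icn* and *icn2* follow each other with 0 other genes between. Within this run *icn2* had a log2 fold change of -0.80 and *s100w* one of 0.51, and the log2 count ratio of *icn2* to *s100w* was 4.40 to 4.60 in the control and 2.99 to 3.40 in the rapamycin libraries. Likewise *s100a11*, *s100u* and *s100s* are neighbours, and the log2 ratio of *s100s* to *s100u* counts was -3.10, -3.43 and -3.72 in the control and -5.40, -5.86 and -6.39 in the rapamycin libraries. *s100s* thus fell beside a neighbour whose log2 fold change was 0.22. *anxa1d* and *anxa1c* are adjacent and had similar log2 fold changes of -0.17 and -0.19, and 1 gene lies between *anxa1c* and *anxa1b*. Reads shared between near-identical copies are not told apart here, because no source used here states how reads were assigned to genes.

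The summed level of the S100 and ictacalcin genes was 4429, 6227 and 5899.7 CPM in the control and 3172, 3765 and 3952 CPM in the rapamycin libraries. Every treated library was thus lower. The largest shares of the sum were those of *icn2* and *s100a10b*, with means of 28.5% and 33.1% in the control and 24.7% and 36.4% with rapamycin. Of these 2 genes only *icn2* was lower in every treated library, while *s100a10b* overlapped between the groups. The annexins summed to 3068, 4523 and 5262 CPM in the control and 3499.9, 3792.5 and 3949 CPM in the rapamycin libraries, with control 1 lowest and the groups overlapping. Within the annexin sum, *anxa2a* held 24.4%, 29.3% and 32.8% in the control and 22.5%, 21.9% and 21.5% in the rapamycin libraries, while *anxa1b* went from 7.88% to 11.2% up to 14.98% to 16.1%. These are shares of reads and not of transcripts, because no transcript lengths were used.

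Genes that work with the families were read from lists. Of 30 symbols of membrane repair proteins (calpains, ferlins, ESCRT and others) 19 were found, and 19 gene IDs were tested. None of these passed in edgeR, and the median log2 fold change was -0.13. At an unadjusted p under 0.05, 2 were higher and 1 lower, beside 10.1% higher and 13.3% lower of all tested genes. DESeq2 called 2 higher and limma-voom 1, beside 5.06% and 2.87% of all tested genes. Without control 1, edgeR called 4 of them higher and 6 lower, in a setting where 15.5% of all genes were called higher and 15.6% lower. *pdcd6ip*, an ESCRT adaptor of wound closure in mammalian cells, was at 156, 90.4 and 95.4 CPM in the control and at 209.9, 200.1 and 198 CPM in the rapamycin libraries (log2 fold change 0.83 ± 0.23 SE, adjusted p = 0.0680, edgeR). The other gene higher at an unadjusted p under 0.05 was *MYOF* ENSDARG00000006112 (log2 fold change 1.06 ± 0.38 SE, adjusted p = 0.132, edgeR). The lower gene was *pdcd6* (log2 fold change -0.59 ± 0.23 SE, adjusted p = 0.158, edgeR).

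Of 25 symbols of partners and downstream genes 10 were found and 9 tested. The plasminogen activator gene *plat* rose, with means of 5.44 ± 1.44 CPM in controls and 23.2 ± 4.25 CPM after rapamycin (SD, n = 3 each), with an adjusted p of 0.00563 from edgeR. The transglutaminase gene *tgm2l* rose as well, with means of 19.7 ± 1.48 CPM in controls and 41.1 ± 11.1 CPM after rapamycin (SD, n = 3 each, log2 fold change 1.06 ± 0.22 SE, adjusted p = 0.0291, edgeR). The other 7 did not pass. Among these, *fpr1*, of the receptor family of annexin A1, was at 5.16, 6.82 and 10.1 CPM in the control and at 3.40, 3.81 and 2.62 CPM in the rapamycin libraries (log2 fold change -1.16 ± 0.33 SE, adjusted p = 0.0717, edgeR). Leaving out any 1 library other than control 1 ended the call of *tgm2l* and kept that of *plat*.

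Gene span bears on the short S100 genes in particular. After the trend of each library with span was removed, the median log2 fold change of the 13 S100 and ictacalcin genes was -0.11 in place of -0.50, and that of the 14 annexins with a known span was -0.29. The 4 called members stayed lower, *anxa6* (-1.21, adjusted p = 0.0441) was also called lower and *s100w* (0.87, adjusted p = 0.0198) higher, all from edgeR. In the same fit *s100a10b* was at -0.11 and *icn* at 0.014, so the sign of *icn* is not settled.

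**Figure D5:**
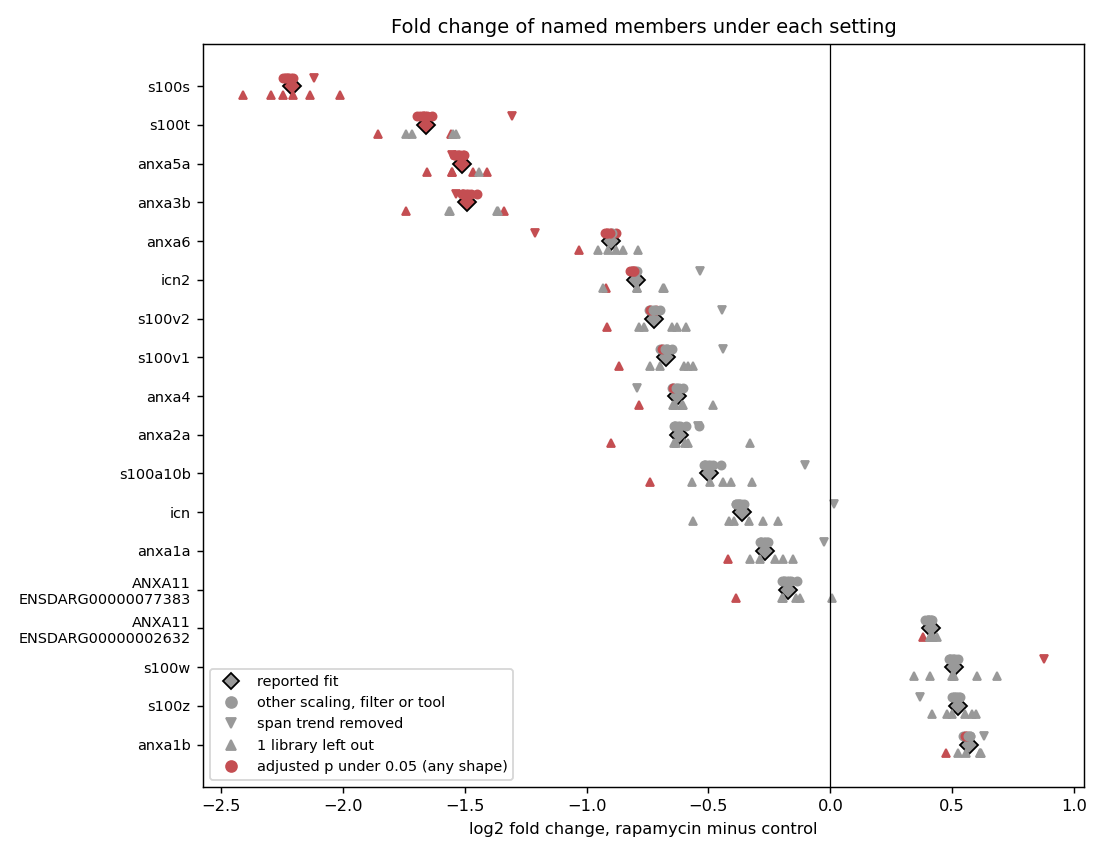
The log2 fold change, rapamycin minus control, of 18 named members is shown in the reported edgeR fit (diamonds), with other scalings, filters and tools (circles), with the span trend removed (triangles pointing down) and without 1 library (triangles pointing up), in red where the adjusted p was under 0.05. *s100s* is red throughout, from -2.41 to -2.01, and for most uncalled members a red point appears without control 1.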

How the data were processed

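The authors made SMART-seq libraries from Trizol-extracted RNA of pooled fins and sequenced them in paired ends. They deposited raw counts, a whole number for each Ensembl zebrafish gene and library. No aligner, counting tool or annotation is named in the sources used here, and the build that the submitters' processing notes name is mm10, although all IDs are zebrafish genes. Symbols came from a table of gene names. Of the 31 members 29 were matched to RefSeq (GRCz12tu) by name, 3 of them by a synonym (*anxa1a*, *anxa2a* and *anxa3a*), and 2 share the name ANXA11.

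Tests ran on these counts in edgeR 4.0.16 under R 4.3.3 (filterByExpr, TMM, robust quasi-likelihood test, no covariate, Benjamini-Hochberg adjustment over all tested genes). Standard errors are the absolute log2 fold change over the square root of F. limma 3.58.1 (voom), DESeq2 1.42.0, other scalings and filters, removal of the span trend by loess and leaving out each library were alternatives. Fits were tested on simulated data. p-values measure the spread between libraries, in which differences between pools of fins and between library preparations are not told apart.

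Values are given per library for members that were called, had the most reads, changed most without a call or did not overlap. Outside that rule they are also given for *anxa5b*, *anxa3a*, *anxa1c* and *anxa1d* and for the uncalled list genes *pdcd6ip* and *fpr1*. The members and lists were chosen with earlier results of these data known, and the ratios after their counts were seen. Levels per coding length were not computed, since no lengths were at hand, and no sequences were used here.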

Additional observations from a re-analysis of the deposited data

How the results depend on the processing

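All genes gave 390 higher and 647 lower calls, DESeq2 gave 1000 and 1539, and leaving out 1 library gave 47 to 3128 and 65 to 3151. Of the members, 0 rose and 4 fell. With library size only 1 rose and 7 fell, with DESeq2 1 rose and 9 fell, and with the span trend removed 1 rose. Leaving out 1 library gave 0 to 2 that rose and 1 to 13 that fell, the upper ends without control 1. The S100 and ictacalcin median was -0.50, -0.11 without the span trend and -0.74 to -0.41 without 1 library, and the annexin median -0.43 to -0.11 without 1 library. Of 275 values of 20 named members under 14 alternatives, 234 kept direction and side of the threshold, 9 lost the call, 30 gained it and 2 changed sign, *icn* without the span trend (0.014) and ANXA11 ENSDARG00000077383 without control 3 (0.0068, and -0.39 without control 1). The cause was not tested. The planned comparison of levels with and without division by coding length was not run, since no lengths were at hand, and all levels are CPM. No paired analysis was possible because the groups share no replicate numbers.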
